A study of Homo sapiens with 4 samples.

Results

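Genes of the integrated stress response were examined in human embryonic stem cells. The 10 genes were chosen by name: ATF4, ATF5, ATF3, DDIT3, DDIT4, SESN2, TRIB3, CHAC1, ASNS and PSAT1, of 20041 genes named on the array. They are represented by 16 probes. Detection p, the share of negative control probes at least as bright, was at most 0.01 on at least 1 array for 13 of these probes and for all 10 genes. Cells were cultured in E8, a defined medium that keeps stem cells pluripotent, on plates coated with matrigel, a basement membrane extract. Nicotinamide, a form of vitamin B3, was added to 1 culture at 10 mM, and its array was made after 24 h (Nam). The ROCK inhibitor Y27632 was added to another at 10 µM, also for 24 h (Y27632). The culture labelled Mesoderm had BMP4, a growth factor, in its E8 for 6 days at a dose the labels do not give. The untreated culture was kept in plain E8 and is labelled 24 h (E8). RNA of each condition was hybridised to 1 Illumina Expression BeadChip, so there were 0 replicates, no test was run, and each difference lies between 2 single arrays. No array of cells kept for 6 days without BMP4 was analysed here, so BMP4 and time in culture cannot be told apart.

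In the integrated stress response, kinases that sense amino acid shortage, unfolded protein, haem loss or double-stranded RNA phosphorylate the translation factor eIF2. General protein synthesis slows, while translation of ATF4 mRNA increases through short open reading frames ahead of its coding sequence, so that ATF4 activity is set largely by translation and its mRNA level need not follow. ATF4 binds C/EBP-ATF response elements (CARE) with C/EBP partners and induces genes of amino acid synthesis and transport, further transcription factors such as CHOP (DDIT3), and feedback inhibitors. Several of its targets also answer to other inputs, among them p53 (SESN2, ATF3) and low oxygen (DDIT4).

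Mean signal was 528.5 on Nam, 564.7 on Y27632, 580.9 on Mesoderm and 620.5 on E8, and 16509 to 18051 of 47296 probes were detected. The labels name the line H9 in the characteristics and H1 in the growth protocol, both established lines. A check of the arrays found 4 of 4 in conflict with the first and 4 of 4 compatible with the second. All 5 stem cell markers with a probe were detected on Nam, Y27632 and E8, and 4 of 5 on Mesoderm, where SOX2 was not. Of 6 mesoderm markers, 1 was detected on Nam, 0 on Y27632, 6 on Mesoderm and 0 on E8, and of 4 markers of definitive endoderm, 1 on Nam, 1 on Y27632, 4 on Mesoderm and 1 on E8. Of 4 trophoblast markers, 1 was detected on Mesoderm and 0 on each of the others. The summed uncorrected signal of the mesoderm markers was 807 on Nam, 829 on Y27632, 19000 on Mesoderm and 873 on E8. That of the stem cell markers was 28236 on Nam, 32754 on Y27632, 9846 on Mesoderm and 37274 on E8. These sums are not normalized, and mean signal also differed between the arrays. By normalized values the stem cell markers had a median log2 difference of -0.14 on Nam minus E8. They ran from -0.58 for NANOG to 0.04 for LIN28A. Fibroblast markers were detected for 3 of 5 genes on Nam, 3 on Y27632, 4 on Mesoderm and 3 on E8, and neural markers for 2 of 4 on Nam, 2 on Y27632, 1 on Mesoderm and 1 on E8. Cell identity thus moves with every difference of the Mesoderm array from E8, and its part in them was not tested. Fewer cells of a type and less RNA per cell cannot be told apart in such RNA.

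Promoter stretches of DDIT4, ASNS, CHAC1 and DDIT3 are shown because DDIT4 and DDIT3 carry the largest differences of these genes and ASNS and CHAC1 hold the ATF4 element. Each is the 250 bases before a RefSeq transcript start of GRCh38.p14, read 5′ to 3′ on the gene's strand, with the motif in capitals. DDIT4 (chr10:72273674-72273923, plus strand) holds ACGTG, the core of the element bound by hypoxia-inducible factors. ASNS (chr7:97872409-97872658, minus strand) and CHAC1 (chr15:40953221-40953470, plus strand) hold a CARE match, which in CHAC1 is on the opposite strand. DDIT3 (chr12:57520515-57520764, minus strand) holds a match to AP-1, the motif of JUN-type factors.
DDIT4: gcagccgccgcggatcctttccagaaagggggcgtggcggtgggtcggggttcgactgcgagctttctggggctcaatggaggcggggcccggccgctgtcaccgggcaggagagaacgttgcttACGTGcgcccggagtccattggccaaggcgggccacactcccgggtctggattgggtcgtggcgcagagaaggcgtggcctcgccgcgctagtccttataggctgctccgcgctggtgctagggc
ASNS: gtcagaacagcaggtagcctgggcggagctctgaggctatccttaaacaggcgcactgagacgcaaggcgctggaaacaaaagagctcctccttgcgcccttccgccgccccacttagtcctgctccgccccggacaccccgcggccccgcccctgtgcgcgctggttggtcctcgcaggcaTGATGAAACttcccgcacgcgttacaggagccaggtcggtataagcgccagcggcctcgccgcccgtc
CHAC1: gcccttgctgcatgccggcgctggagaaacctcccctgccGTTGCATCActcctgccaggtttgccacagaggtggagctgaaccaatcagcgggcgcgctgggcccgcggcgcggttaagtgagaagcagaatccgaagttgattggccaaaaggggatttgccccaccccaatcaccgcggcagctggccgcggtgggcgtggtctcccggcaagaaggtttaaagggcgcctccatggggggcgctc
DDIT3: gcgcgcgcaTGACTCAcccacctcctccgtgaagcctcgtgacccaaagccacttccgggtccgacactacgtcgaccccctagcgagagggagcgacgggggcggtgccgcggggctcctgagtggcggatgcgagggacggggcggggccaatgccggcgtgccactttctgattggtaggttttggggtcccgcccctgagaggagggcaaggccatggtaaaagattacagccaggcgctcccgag

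All 10 genes had promoter windows of 300 bases, 250 before and 50 after a start, 18 windows in all, some of which overlap. The motifs searched on both strands were TGATGNAAN for CARE, ACGTG for the hypoxia core, which also lies within the E-box CACGTG, and TGANTCA for AP-1. CARE matched in 1 window each of ASNS (TGATGAAAC, from position -68, counted back from the base before the transcript start as -1), CHAC1 (GTTGCATCA, from -210) and ATF3 (TGATGGAAG, from -191), and in 3.61% of all 35116 windows. ACGTG matched in DDIT4 (from -125) and, as a palindrome read on both strands, in both windows of ATF4, against 21.4% of all windows. AP-1 matched in both windows of DDIT3 and 1 of 3 of ATF5, against 7.71% of all windows. ERSE matched in no window of the 10 genes, against 0.0769% of all windows. None of the motifs matched in the windows of TRIB3, SESN2 or PSAT1. These matches describe letters and say nothing on binding in these cells.

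The largest difference of these genes after nicotinamide was in DDIT4, also called REDD1, an inhibitor of the growth kinase mTORC1. Its probe had a signal of 1609 on Nam, 3373 on Y27632, 1273 on Mesoderm and 4330 on E8. The Nam and Mesoderm arrays were both far below the other two. After background correction and quantile normalization, the log2 level was 10.70 on Nam, 11.71 on Y27632, 10.18 on Mesoderm and 11.88 on E8. DDIT4 was thus lower on Nam than on E8 by a log2 difference of -1.18, or 2.27-fold, and ranked 77 from the lowest among 11390 compared genes, of which 1.56% were at least 2-fold lower. It was lower on Mesoderm than on E8 by -1.70 (3.26-fold), where 11.4% of 11649 genes were at least 2-fold lower, and on Y27632 the difference was -0.17. The pooled SD between probes of 1 gene, a technical spread that does not cover differences between cultures, came to 0.30 on Nam, 0.25 on Y27632 and 0.42 on Mesoderm, each against E8. DDIT4 has a single probe, so no second probe bears on it. The differences of Nam, Y27632 and Mesoderm all use the same E8 array, so these 3 comparisons are not independent.

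**Figure D1:**
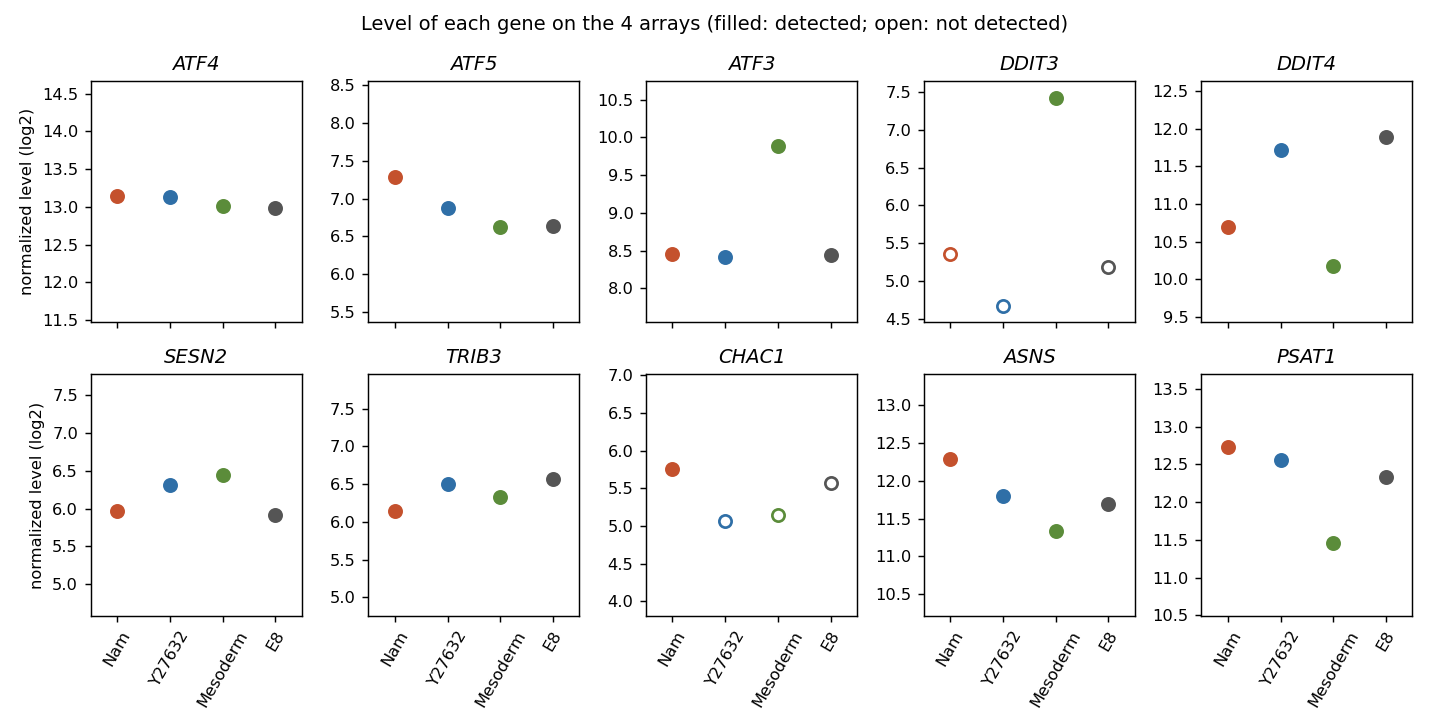
Normalized log2 level of the brightest probe of each gene (vertical axis, 3.2 log2 units in every panel) on the Nam, Y27632, Mesoderm and E8 arrays (horizontal axis), 1 array each, with filled points for detected and open points for undetected probes. DDIT4 is low on Nam (10.70) and Mesoderm (10.18), while ATF3 and DDIT3 are high on Mesoderm alone.

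DDIT4 is also induced by low oxygen, and a list of other hypoxia-induced genes is given beside it. Of 9 with a probe, 9 had a negative difference on Nam, with a median of -0.41 against 0.04 over all compared genes. VEGFA, also induced by low oxygen but listed with the targets of ATF4 and CHOP, went the other way on Nam, at 0.28. The 9 of 9 thus holds for this list only. With median scaling 9 of 9 were also negative. That setting moved the median of all genes to -0.15 on Nam, so it is no check of the sign. NDRG1, a stress-responsive growth regulator, stood at -0.88 and ANKRD37 at -0.60. On Mesoderm, where 22.5% of all 11649 genes were at least 1.5-fold lower, 6 of 9 were lower by normalized values, 5 of 9 with undetected genes at their bound, and 4 of 9 without background correction. Among them were PFKFB4, a regulator of glycolysis (-1.89), BNIP3, a mitophagy receptor (-0.95), PFKFB3 (-0.94), ANKRD37 (at least 2.85-fold lower) and EGLN3, an oxygen sensor (at least 1.42-fold lower). NDRG1 was higher there by 0.81. On Y27632, 0 of 9 reached 1.5-fold in either direction, where 1.58% of all genes were higher and 2.03% lower. Values lay between -0.32 for PDK1, which Y27632 did not detect (at least 1.08-fold lower), and 0.09 for NDRG1. The probe for 18S ribosomal RNA (RNA18SN5) also differed on the same 2 arrays as DDIT4, by 2.82 on Nam and 2.71 on Mesoderm, against 0.17 on Y27632. The part of either in the DDIT4 difference was not tested.

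ATF4 is the central factor of the response. Its brightest probe had a log2 level of 13.15 on Nam, 13.13 on Y27632, 13.02 on Mesoderm and 12.99 on E8, a span of 0.16. The 3 ATF4 probes did not move alike: on Nam minus E8 they stood at 0.16, -0.30 and -0.01, and on Mesoderm minus E8 at 0.03, -0.10 and 0.67. The last is a dim probe with a signal of 211.0 on Mesoderm and 177.8 on E8. No direction for ATF4 holds over its probes in either comparison.

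ATF5, a factor translated under the same control as ATF4 and linked to the mitochondrial stress response, had a signal of 252.9 on Nam, 229.6 on Y27632, 224.5 on Mesoderm and 233.5 on E8. Its log2 level was highest on Nam at 7.29, against 6.88 on Y27632, 6.63 on Mesoderm and 6.64 on E8. The difference on Nam was 0.65 (1.57-fold), on a probe close to background. It was under 1.5-fold in 4 of 9 processing settings, with a range of 0.33 to 0.65.

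ATF3 and DDIT3, which act late in the response, differed on the Mesoderm array. ATF3, a stress-induced repressor and partner of JUN, had a signal of 426.9 on Nam, 440.5 on Y27632, 1066 on Mesoderm and 519.8 on E8. It was higher on Mesoderm by 1.44 (2.71-fold), a comparison in which 10.6% of genes reached 2-fold upward, and the differences were 0.01 on Nam and -0.03 on Y27632. Its other 2 probes were detected on no array. DDIT3, which encodes the pro-apoptotic factor CHOP, had a signal of 150.96 on Nam, 133.6 on Y27632, 297.4 on Mesoderm and 155.2 on E8, and was detected on Mesoderm alone. Detection p was 0.0221 on Nam, 0.439 on Y27632, 0 on Mesoderm and 0.0597 on E8. DDIT3 was at least 3.58-fold higher on Mesoderm than on E8, set against the lowest level of a detected probe on E8. This and every other "at least" value is a bound under the reported processing only: the ratio of the uncorrected signals of DDIT3 was 1.92.

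**Figure D2:**
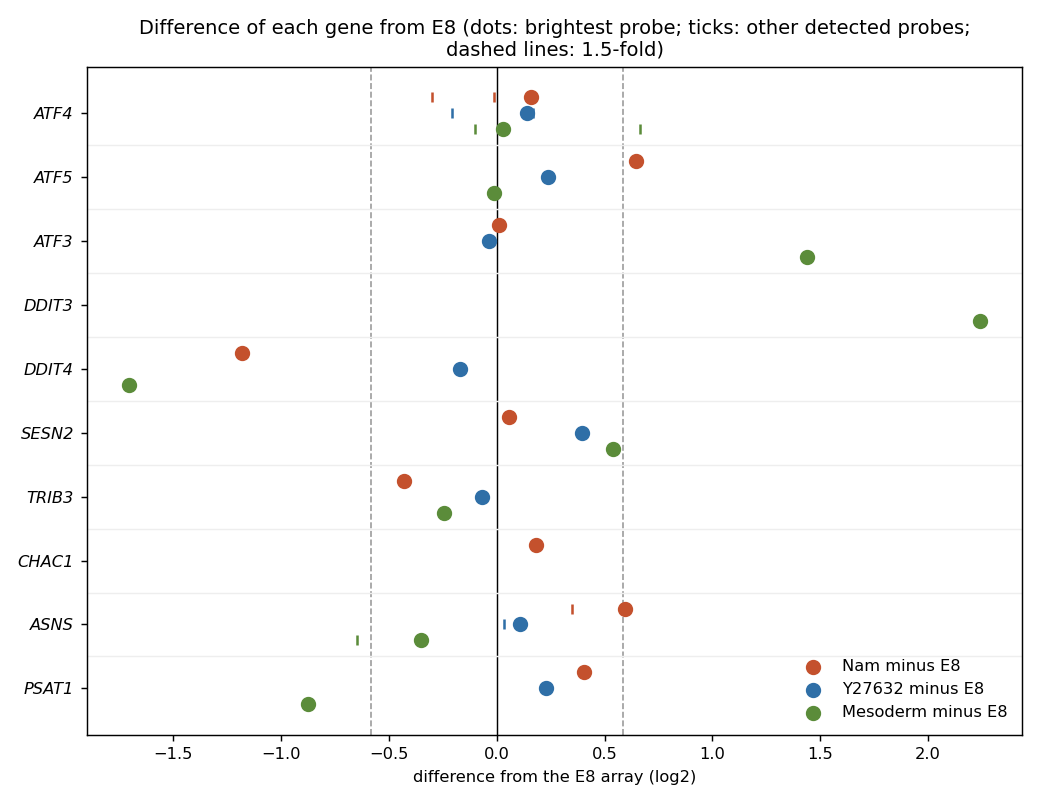
Log2 difference of each gene from the E8 array (horizontal axis) for Nam, Y27632 and Mesoderm, with dots for the brightest probe, ticks for other detected probes and dashed lines at 1.5-fold; genes not detected on either array are left out. DDIT4 lies left of the lines for Nam (-1.18) and Mesoderm (-1.70), and the Y27632 dots all lie between the lines.

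Of the amino acid enzymes, ASNS, which makes asparagine, had a signal of 4533 on Nam, 3569 on Y27632, 2736 on Mesoderm and 3789 on E8. Its second probe had 2280 on Nam, 1976 on Y27632, 1314 on Mesoderm and 2228 on E8. Both probes were highest on Nam and lowest on Mesoderm. The difference of Nam from E8 was 0.59 for the brighter and 0.35 for the dimmer probe, so that only the brighter one passed 1.5-fold, and their mean was 0.47 (SD 0.17, 2 probes). On Mesoderm they stood at -0.35 and -0.65, and on Y27632 at 0.11 and 0.03.

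PSAT1, an aminotransferase of serine synthesis, had a log2 level of 12.73 on Nam, 12.56 on Y27632, 11.45 on Mesoderm and 12.33 on E8. Its signal was 6202 on Nam, 6013 on Y27632, 2960 on Mesoderm and 5897 on E8. The Mesoderm array stood apart, lower than E8 by -0.87 (1.83-fold). The differences of 0.41 on Nam and 0.23 on Y27632 were below 1.5-fold. Its second probe was detected on no array.

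The remaining genes, TRIB3, SESN2 and CHAC1, are feedback and effector genes measured by 1 dim probe each. TRIB3, a pseudokinase that inhibits ATF4 and AKT, had a signal of 176.5 on Nam, 203.8 on Y27632, 205.5 on Mesoderm and 227.7 on E8, and its difference from E8 was -0.43 on Nam, -0.07 on Y27632 and -0.25 on Mesoderm. SESN2, a leucine sensor that restrains mTORC1, had 169.5 on Nam, 193.4 on Y27632, 212.9 on Mesoderm and 186.0 on E8. Its differences of 0.06 on Nam, 0.40 on Y27632 and 0.54 on Mesoderm were all below 1.5-fold. CHAC1, which degrades glutathione, had 162.6 on Nam, 147.8 on Y27632, 160.6 on Mesoderm and 170.3 on E8 and was detected on Nam alone. Its signal was lower on Nam than on E8 while its normalized log2 level was higher by 0.18, so no direction is given. Detection p for CHAC1 was 0.0026 on Nam and 0.0104 on E8, so these 2 arrays lie on either side of the threshold with nearly the same value.

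Counted together, 2 of 9 measured genes were at least 1.5-fold higher on Nam than on E8 (ATF5 and ASNS), where 4.93% of all 11390 genes were, and 1 was lower (DDIT4), where 6.69% were. The higher count was 0 without background correction and 0 with median scaling, and 1 under 3 other settings. The median was 0.16, against 0.04 over all genes. On Y27632, 0 of 8 were higher and 0 lower, against 1.58% and 2.03% of 10989 genes, with a median of 0.12 against 0.01. On Mesoderm, 2 of 9 were higher (ATF3 and DDIT3), against 20.3% of 11649 genes, and 2 lower (DDIT4 and PSAT1), against 22.5%, with a median of -0.01 against -0.02. The share on Mesoderm is that of the array as a whole and is no result about these genes as a group. DDIT3 entered this count because the Mesoderm array detected it, which by itself favours a higher value.

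**Figure D3:**
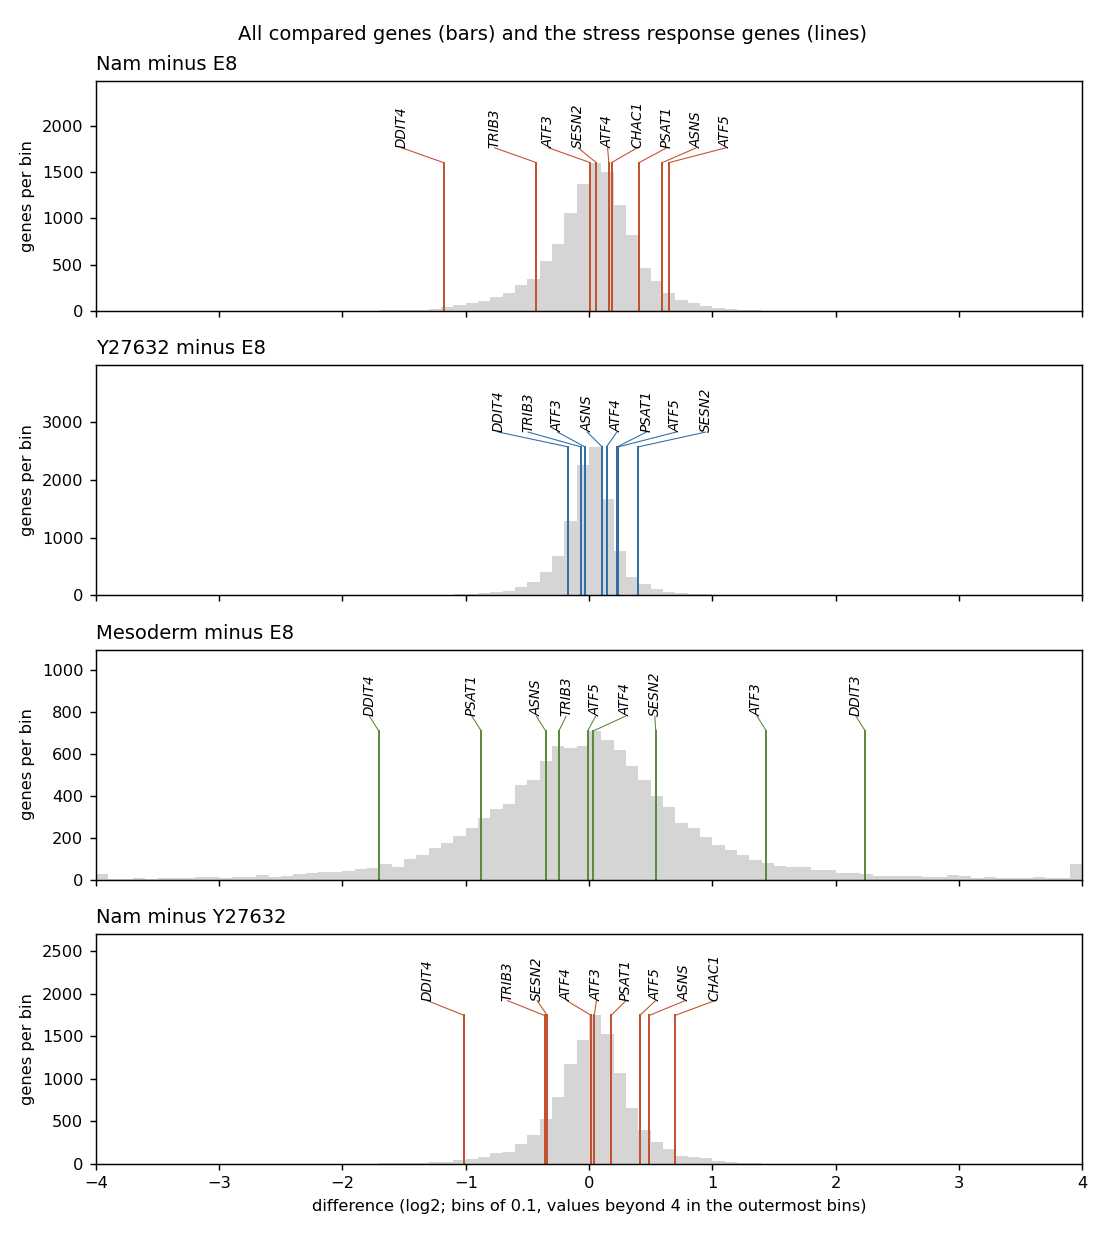
Number of genes per bin of 0.1 log2 units (vertical axis) by difference (horizontal axis) for the 4 comparisons, with coloured lines for the stress response genes that entered each. DDIT4 lies in the lower tail for Nam minus E8 and Nam minus Y27632, and the genes lie on both sides of 0 in each panel.

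Set against each other, the Nam and Y27632 arrays differed by the most in DDIT4 among these genes, with a log2 level of 10.70 on Nam and 11.71 on Y27632. The doses of the 2 compounds differ, at 10 mM and 10 µM, and both were given for 24 h. DDIT4 was lower on Nam by -1.01 (2.02-fold), at rank 116 from the lowest of 11173 genes, of which 1.07% were at least 2-fold lower. By normalized values CHAC1 was the 1 of 9 genes at least 1.5-fold higher, against 4.69% of all genes, but it was not detected on Y27632 and no fold can be given. CHAC1 entered because the Nam array detected it, which by itself favours a higher value. DDIT4 was the 1 gene lower, against 4.89%. ASNS stood at 0.49, ATF5 at 0.41, PSAT1 at 0.18, SESN2 at -0.34 and TRIB3 at -0.36. The comparisons of Nam with E8 and with Y27632 share the Nam array, so they are not independent.

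Upstream of these genes, the eIF2 kinases, the subunits of eIF2 and its exchange factor, and their regulators had 0 of 15 genes at 1.5-fold on Nam. The extremes were EIF2AK4 (GCN2), the kinase that senses uncharged tRNA, at -0.37, and OMA1, a mitochondrial protease that relays stress to eIF2, at 0.41. On Y27632 the same count was 0 of 15. Over all genes, 4.93% were higher and 6.69% lower by this fold on Nam, and 1.58% and 2.03% on Y27632. On Mesoderm, EIF2AK3 (PERK), the kinase of the endoplasmic reticulum, was higher by 0.995 and EIF2B2 by 0.66, while EIF2AK4 was lower by -0.91 and EIF2S2 by -0.62. These were 2 higher and 2 lower of 15, against 20.3% and 22.5% of all genes, and are no result about this list. With median scaling, which moved the median of all genes to -0.19 on Mesoderm, 1 was higher and 4 lower. Of the phosphatase subunits that reverse the signal, PPP1R15B stood at 0.61 on Nam and 0.61 on Y27632 on a dim probe. PPP1R15A (GADD34), the inducible subunit, stood at -0.08 on Nam and -0.03 on Y27632, and was higher on Mesoderm by 1.38.

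Of the partner factors, 4 of 9 were at least 1.5-fold higher on Mesoderm, where 20.3% of all genes were: JUN (1.73), CEBPD (1.18), a C/EBP factor, ATF2 (1.09) and the antioxidant regulator NFE2L2 (0.81). None of the 9 was lower, against 22.5% of all genes. On Nam, 0 of 9 reached 1.5-fold, where 4.93% of all genes were higher and 6.69% lower. Values ran from -0.33 for JDP2 to 0.37 for ATF2. On Y27632 the 1 of 9 past 1.5-fold was JDP2, a repressor that pairs with JUN proteins, at -1.08. There 2.03% of all genes were lower by this fold. JDP2 was higher on Nam than on Y27632 by 0.74. Its log2 level on Y27632 was 5.90, close to 5.82, the lowest level of a detected probe on that array.

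**Figure D4:**
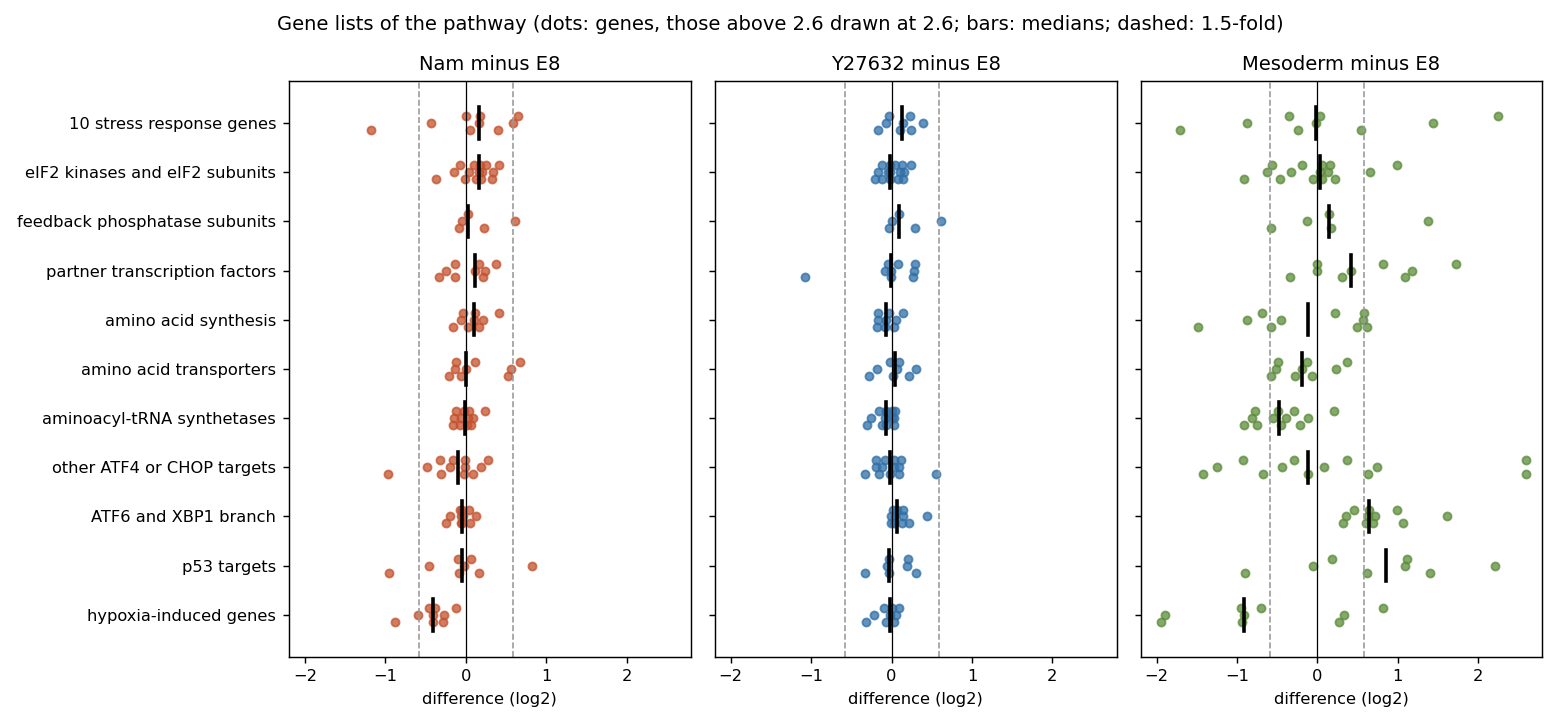
Log2 differences from E8 (horizontal axis) of the genes of each list (rows) on Nam, Y27632 and Mesoderm, with dots for genes, bars for medians and dashed lines at 1.5-fold; 2 genes above 2.6 are drawn at 2.6. On Nam most lists centre near 0 and the hypoxia-induced genes lie below it (median -0.41), while on Mesoderm the ATF6 and XBP1 branch lies above 0 and the aminoacyl-tRNA synthetases below.

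Counts for other targets of ATF4 with roles like those of ASNS and PSAT1 are read against the shares over all genes. On Nam these shares were 4.93% at least 1.5-fold higher and 6.69% lower. Of 9 measured genes of amino acid synthesis 0 reached 1.5-fold, from -0.16 for PYCR1, a proline enzyme, to 0.42 for CBS, an enzyme of cysteine synthesis. Of 9 amino acid transporters 1 did, SLC7A1, which carries arginine and lysine, at 0.68. Of 12 aminoacyl-tRNA synthetases 0 did, between -0.16 for AARS1 and 0.24 for TARS1. On Y27632, 0 of 9 synthesis genes, 0 of 8 transporters and 0 of 12 synthetases reached 1.5-fold. The shares over all genes there were 1.58% higher and 2.03% lower. Counts this small are no result about these lists.

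On Mesoderm the counts are read against the 20.3% of all genes that were higher and the 22.5% that were lower by this fold. PSPH, which acts after PSAT1 in serine synthesis, was lower by -1.49, SHMT2, a mitochondrial enzyme of serine and glycine exchange, by -0.88 and CBS by -0.69, while CTH was higher by 0.62. These were 3 lower and 1 higher of 10, near the shares over all genes, and with median scaling 5 were lower and 0 higher. Of the 12 synthetases, 11 had a negative difference and 4 were at least 1.5-fold lower: VARS1 (-0.91), TARS1 (-0.82), IARS1 (-0.78) and LARS1 (-0.76). WARS1 was highest at 0.21. Their median was -0.47, against -0.02 over all genes, and with median scaling 7 were lower. Of 9 transporters 0 reached 1.5-fold, with SLC38A1 lowest at -0.58, and with median scaling 3 were lower. Median scaling moved the median of all genes to -0.19 on Mesoderm. The share of 22.5% is not from that setting, so the counts of lower genes under it have no matching share here.

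Of the remaining targets of ATF4 and CHOP, 1 of 12 was lower on Nam, against 6.69% of all genes. It was the cell cycle inhibitor CDKN1A (-0.97). On the same array 0 were higher, against 4.93% of all genes. On Mesoderm, 4 of 13 were higher and 4 lower, against 20.3% and 22.5% of all genes, and without background correction 2 were lower. GDF15, a secreted stress hormone, was at least 36.7-fold higher, CDKN1A was higher by 3.74 and the death receptor TNFRSF10B by 0.74. PMAIP1 (NOXA), which promotes apoptosis, was lower by -1.42, STC2, a secreted glycoprotein, by -1.25, and EIF4EBP1, a repressor of translation, by -0.93. On Y27632, GDF15 was detected and was at least 1.41-fold higher, and EIF4EBP1 stood at -0.33.

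The neighbouring branch of the unfolded protein response, which runs through ATF6 and XBP1, had 0 of 11 genes at 1.5-fold on Nam (from -0.25 for CALR to 0.13 for SDF2L1) and on Y27632 (0 of 11, from -0.01 for PDIA4 to 0.43 for EDEM1). Over all genes, 4.93% were higher and 6.69% lower by this fold on Nam, and 1.58% and 2.03% on Y27632. On Mesoderm, 11 of 11 genes of this branch had a positive difference and 8 were at least 1.5-fold higher, against 20.3% of all genes. The branch had a median of 0.64 there, against -0.02 over all genes. With median scaling 11 of 11 stayed positive and 3 were at least 1.5-fold higher. DNAJB9, an XBP1 target and co-chaperone, was higher by 1.61, HSPA5 (BiP), the main chaperone of the compartment, by 1.06, XBP1 by 0.99, CALR by 0.71, HSP90B1 by 0.69 and PDIA4 by 0.64. Targets of p53, the other input to SESN2 and ATF3, were higher in 5 of 8 cases on Mesoderm, against 20.3% of all genes, and in 3 without background correction. Among them were PHLDA3 at 2.21, MDM2 at least 1.82-fold higher, TIGAR at 1.12, BAX at 1.09 and SESN1 at 0.61. MDM2 entered because the Mesoderm array detected it, which by itself favours a higher value. On the same array 1 of 8 was lower, ZMAT3 (-0.90), against 22.5% of all genes. CDKN1A, GDF15, TNFRSF10B, PMAIP1 and BBC3, counted with the targets of ATF4 and CHOP, also answer to p53 and are not in this count. Of these, CDKN1A, GDF15 and TNFRSF10B were higher on Mesoderm, PMAIP1 was lower by -1.42 and BBC3 stood at 0.08. On Nam, by normalized values, 1 of 8 was higher and 1 lower, against 4.93% and 6.69% of all genes. ZMAT3 was lower there by -0.96, and MDM2, which E8 did not detect, was at least 1.23-fold higher. On Y27632, 0 of 7 reached 1.5-fold.

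Genes with the most similar pattern were sought for members that spanned at least 1 log2 unit and were detected on all arrays, by the Euclidean distance of the 3 differences from E8 over 9484 genes detected on all 4 arrays. Nearest to DDIT4 were RARRES2 (distance 0.13), UNC5A (0.26) and KCNAB1 (0.31). RARRES2, which encodes the adipokine chemerin, stood at -1.06 on Nam, -0.21 on Y27632 and -1.68 on Mesoderm. Nearest to ATF3 were SLC48A1 (0.05), LRATD2 (0.07) and BCAR3 (0.07), and nearest to PSAT1 were BRCC3 (0.05), WASF3 (0.07) and WDR77 (0.09). With 3 differences per gene, such likeness is a description only.

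DDIT4 stayed past 1.5-fold under 9 of 9 settings on Nam (from -1.35 to -1.13) and on Mesoderm (from -1.85 to -1.61). PSAT1 on Mesoderm did so under 9 of 9 (from -1.01 to -0.85) and ATF3 on Mesoderm under 9 of 9 (1.19 to 1.44). No such range is given for DDIT3, which E8 did not detect. ASNS on Nam passed under 6 of 9, with a range of 0.41 to 0.60.

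**Figure D5:**
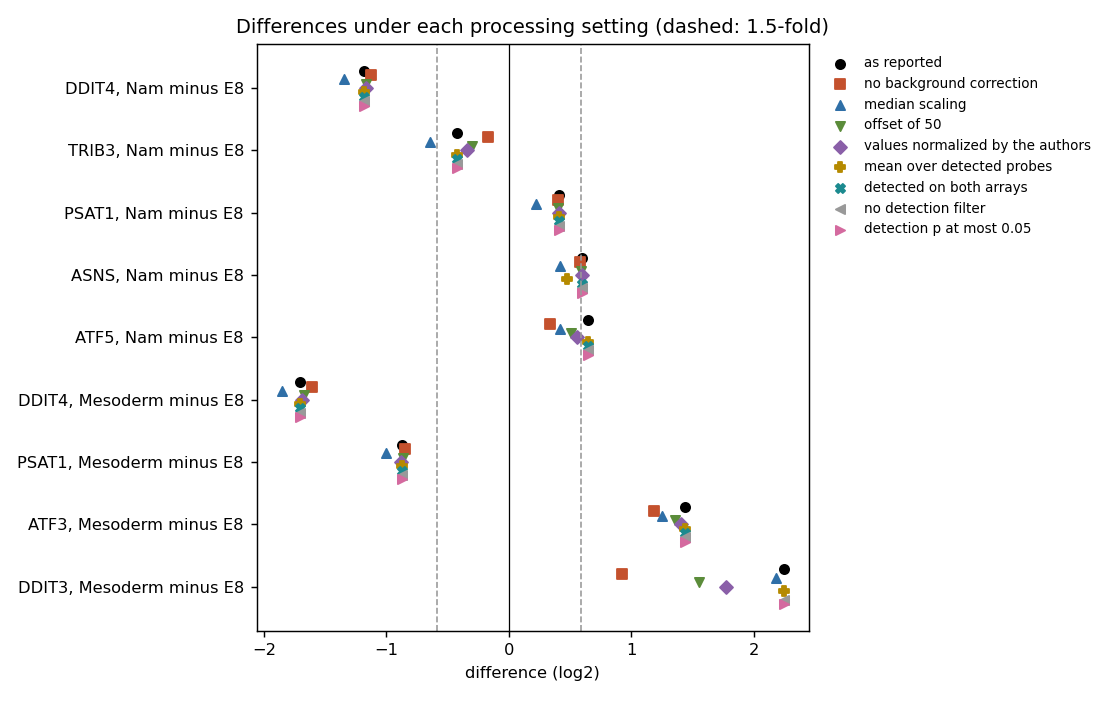
Log2 difference (horizontal axis) of selected genes and comparisons (rows) under the reported processing and 8 alternatives (symbols), with dashed lines at 1.5-fold. DDIT4 lies beyond the line under all 9 on Nam and Mesoderm, while ASNS (0.41 to 0.60) and ATF5 (0.33 to 0.65) on Nam lie on both sides of it.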

How the data were processed

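Per the file headers, 1 deposited table gives every probe's intensity before normalization, and beside it a detection p-value, array by array. The authors also deposited normalized log2 values, and how they were normalized is not given in the sources used here. The columns of that table had medians of 5.58 and nearly equal sorted values, and the series matrix was identical to it (0 cells differed). Per the labels' protocols, RNA was isolated with RNAiso Plus and labelled with a TargetAmp-Nano kit, and the scanner software is likewise not stated there.

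limma 3.58.1 (R 4.3.3) turned the signals into levels (neqc: background from the detection p-values, offset 16, quantile normalization, log2). The offset understates changes of dim genes. A gene was represented by its brightest probe among those detected (p at most 0.01) on at least 1 array, and entered a comparison when detected on at least 1 of its 2 arrays. Of 47296 probes, 30105 had 1 symbol in the platform annotation, 8 several and 17183 none, and 0 symbols changed on a match by gene identifier to RefSeq. Where the dimmer array did not detect a probe, the fold is a bound against the higher of its own level and the lowest level of a detected probe there. The steps were tested on simulated data. Each condition has 1 array, which limits the precision, so genes were counted by size alone, at 1.5-fold. All members are named, and of the other lists those past 1.5-fold, up to 6 per comparison, or else the extremes. VEGFA and BBC3 are named in addition. The members and lists were chosen with earlier results of these data known. The alternatives were no background correction, median scaling, an offset of 50, the values normalized by the authors, the mean over probes, stricter or no detection, and detection p at most 0.05, which was chosen after seeing the data.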

Additional observations from a re-analysis of the deposited data

How the results depend on the processing

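Of the counts and medians of the 10 genes, 83 values under alternatives stayed within 1.5 times the reported count, or within the SD between probes of the reported median, and 13 did not. That SD exceeds the size of each reported median, so the medians could hardly fail this rule. On Nam minus E8 the median went from 0.16 to -0.02 with median scaling and still counted as within. On Nam minus E8, the count of higher genes, reported as 2, was 0 without background correction and 0 with median scaling, and 1 with an offset of 50, with the values normalized by the authors and with the mean over probes. The count of lower genes, reported as 1, was 2 with median scaling, which added TRIB3 at -0.65. On Mesoderm minus E8, the count of higher genes was 1 with detection on both arrays, which leaves out DDIT3. On Nam minus Y27632, the count of higher genes, reported as 1, was 0 without background correction, with an offset of 50, with the values normalized by the authors and with detection on both arrays, and 2 with no detection filter and with detection p at most 0.05, which let DDIT3 in. The cause of the other shifts was not tested. Median scaling moved the median of all genes to -0.15 on Nam, -0.16 on Y27632 and -0.19 on Mesoderm; relative to it, ASNS stood at 0.57 and DDIT4 at -1.19 on Nam. Of the differences of single genes, 270 stayed within the SD between probes and 7 did not, all of them of ATF5, SESN2, CHAC1 or DDIT3, and 0 changed sign among those past 1.5-fold. Signals near background limit these 4 genes and TRIB3. No paired analysis was possible because each condition has 1 array.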

Other observations

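Relatives of these genes were also measured. CHAC2, the constitutive relative of CHAC1, was higher on Nam than on E8 by 0.84 and differed by 0.00 on Y27632, and on Mesoderm it was not detected and at least 2.43-fold lower. DDIT4L, the relative of DDIT4, stood at -0.41 on Nam and -0.21 on Y27632, and was at least 12.3-fold lower on Mesoderm. SESN3, a relative of SESN2, was higher on Mesoderm by 2.19. TRIB1 and TRIB2, relatives of TRIB3, were lower on Mesoderm by -1.75 and -1.06, and TRIB2 was lower on Nam than on Y27632 by -0.65. ASNSD1 stood between 0.05 and 0.20 in the 3 comparisons with E8. Each value is from 1 array per condition.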
